A study of Mus musculus with 32 samples.

Results

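Neutrophils are followed here through 34 genes that the cell switches on in turn, from its precursors in marrow to the mature cell in an inflamed tissue. The genes were taken from a list by symbol, and all 34 were found among the 55359 Ensembl gene identifiers that the bone and gingiva tables share. They were grouped by role as 5 primary granule genes, 9 secondary granule genes with their regulator, 9 genes of the mature surface, 5 activation genes, the S100 pair with Padi4, and 3 subunits of the NADPH oxidase. Poly(A) RNA had been sequenced from bone and gingiva of male wild type C57BL/6J mice aged 9 weeks, an inbred laboratory strain. Mice of the Li group had a silk ligature at the upper second molar of the left side, which brings on periodontitis. In the Tra group the chewing surface of that tooth was built up with composite resin, which overloads it, and the LiTra group received both procedures. The Co group was untreated. Each group had 4 libraries per tissue, 32 in all, with totals of 38163979 to 70793037 counts in bone and 36913075 to 50740393 counts in gingiva. The labels used here do not state how long after treatment the tissues were taken, which part of the jaw made up the bone, or whether each library came from a separate mouse. P-values therefore measure the spread between these libraries, which may in part be technical.

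Neutrophils are short-lived white cells that are made in bone marrow and reach gingiva through the blood, where they are the main cells of the response to bacterial plaque. Their granules are filled in order. Promyelocytes make the proteases and peroxidase of the primary granules, myelocytes and metamyelocytes make lactoferrin, the cathelicidin and the other proteins of the secondary and later granules, and band and segmented cells carry the chemokine and formyl peptide receptors. Transcripts of the early granule genes are largely switched off before a neutrophil leaves the marrow, so that a tissue neutrophil holds granule proteins with little of their mRNA. S100a8 and S100a9 encode the subunits of calprotectin, the most abundant protein pair of the neutrophil cytosol.

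The libraries were not alike in make-up. Nasal gland transcripts and other abundant genes took much of the counts in bone Co 3, Tra 3 and LiTra 1, where the 10 most abundant genes held 51.1%, 62.9% and 53.6% of all counts. Nasal gland transcripts alone took 46.7%, 21.3% and 49.9% there, and also 24% in bone Li 2 and 14.7% in bone Co 4. Summed over 5 bone matrix genes, CPM (counts scaled to library size by TMM, as everywhere below) was 2631 to 8139.9 in bone and 144 to 389.6 in gingiva. Summed over 8 keratinocyte genes it was 18.8 to 7356 in bone and 47989.5 to 122523 in gingiva. The 34 neutrophil genes took 0.125 to 2.55% of the counts in bone libraries and 0.0207 to 1.02% in gingiva libraries. Bone Tra 3 was the lowest of its group for 32 of the 34 genes, bone Li 4 for 33, and bone Li 1 was the highest of its group for all 34. In gingiva, Li 1 stood apart by its primary granule transcripts, described below. In whole tissue, fewer neutrophils and less of their RNA per cell cannot be told apart.

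Untreated bone held transcripts of every stage, and untreated gingiva held little of the early ones. Of the 34 genes, 31 were higher in untreated bone than in untreated gingiva and 0 lower at an edgeR adjusted p under 0.05, in a fit where 27.2% of all 22559 tested genes were higher in bone. The median log2 difference was 5.11 over the 34 genes and 0.07 over all genes. By stage, the median difference was 9.41 for primary granule genes, 8.13 for secondary granule genes, 4.90 for mature surface genes and 1.65 for activation genes. Bone and gingiva libraries were prepared from separate tissues and the labels give no batch, so that preparation and tissue cannot be told apart.

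Levels per length placed the genes of each tissue on 1 scale, CPM per kilobase of exon in untreated mice. In bone S100a9 stood at 6862 ± 877 and S100a8 at 3580.0 ± 519.7 CPM per kb (SD, n = 4, for all values per kb). The secondary granule genes came next, with Ngp, neutrophilic granule protein, at 2204 ± 306, Camp, the cathelicidin, at 987 ± 126, and Ltf, lactoferrin, at 636 ± 74.5 CPM per kb. Camp lay above Chil3 (674 ± 92.9), while Chil3 and Ltf differed by less than their spread. Elane, neutrophil elastase, led the primary granule genes at 324 ± 90.1 CPM per kb, ahead of Mpo, myeloperoxidase, at 209 ± 67.2. Retnlg, a resistin-like secreted protein, stood at 558 ± 50.6 CPM per kb, the highest of the mature group. Receptors of the mature cell were lower per length, with Cxcr2, which draws neutrophils out of marrow towards chemokines, at 27.6 ± 3.16 CPM per kb and Fpr1, a formyl peptide receptor, at 19.4 ± 0.621. Acod1, the itaconate-forming enzyme of activated myeloid cells, was the lowest at 0.315 ± 0.11 CPM per kb. In gingiva S100a9 and S100a8 again led, at 463 ± 274 and 235 ± 160.1 CPM per kb, with wide spread. Ltf followed at 20.4 ± 10.6, Lcn2, lipocalin 2, at 10.4 ± 6.95 and Retnlg at 9.87 ± 6.09 CPM per kb, with overlapping ranges. Elane stood at 0.173 ± 0.279 and Fcnb, a ficolin of the secondary stage, at 0.0358 ± 0.0413 CPM per kb. Calprotectin, lipocalin 2 and lactoferrin are also made by epithelia and glands, so that their gingiva levels are not those of neutrophils alone.

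**Figure D1:**
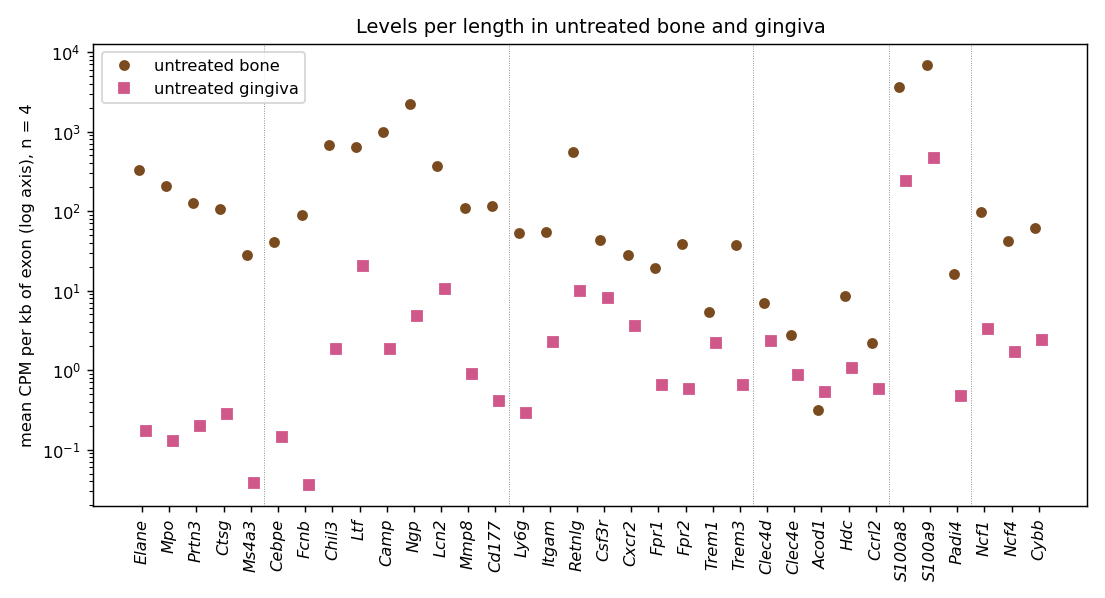
Mean level of each of the 34 genes per kilobase of exon in untreated bone (circles) and untreated gingiva (squares), 4 libraries each, on a log axis. Dotted lines part the 6 role groups, from primary granule genes at the left to oxidase genes at the right. The gaps are widest for the 5 primary granule genes and for Fcnb, Camp and Ngp of the secondary group, followed by Chil3, Cd177 and Cebpe. Acod1 is the gene whose gingiva mean lies above its bone mean.

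Promoter sequences were at hand for 31 of the 34 genes, all except Ncf4, Cebpe and Trem3, from RefSeq on the GRCm38.p6 build. The count tables use another build, so these coordinates belong to the sequences and not to the counts. The 250 bases before each start were searched on both strands for 4 patterns. TTNNGCAA, a core of C/EBP sites, was found in 9 of the 31 windows, against 9.55% of the 27025 genes of the table. It was in 5 of 8 secondary granule windows (Fcnb, Lcn2, Ltf, Mmp8 and Ngp), 2 of 8 mature surface windows, 1 of 5 activation windows and 0 of 5 primary granule windows. GAGGAA, a core of PU.1 sites, was found in 18 of the 31 windows, against 23.1% of all genes. It was in 4 of 5 primary granule, 4 of 8 secondary granule, 6 of 8 mature surface and 3 of 5 activation windows. TGANTCA, an AP-1 core, was in 2 of 31 windows and 6.87% of all genes, and an NF-kappaB core in 1 of 31 and 1.17%. No 2 matches overlapped in any of the 31 windows, and a match is a description of letters, not a shown binding site. The windows below show a primary granule gene with the PU.1 core alone (Ctsg), a pair of secondary granule genes with the C/EBP core that were called lower in LiTra bone (Fcnb and Ltf), and the mature surface genes Ly6g, called in bone, and Cxcr2, called in gingiva. Each runs 5′ to 3′ on the gene's own strand and ends just before the start, with the matched letters in capitals as they read on that strand.
Ctsg, chr14:56102575-56102824, minus strand: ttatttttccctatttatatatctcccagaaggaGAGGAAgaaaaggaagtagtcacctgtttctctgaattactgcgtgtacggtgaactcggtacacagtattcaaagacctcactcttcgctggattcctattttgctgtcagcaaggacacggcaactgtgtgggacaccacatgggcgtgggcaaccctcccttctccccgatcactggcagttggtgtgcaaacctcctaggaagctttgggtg
Fcnb, chr2:28084879-28085128, minus strand: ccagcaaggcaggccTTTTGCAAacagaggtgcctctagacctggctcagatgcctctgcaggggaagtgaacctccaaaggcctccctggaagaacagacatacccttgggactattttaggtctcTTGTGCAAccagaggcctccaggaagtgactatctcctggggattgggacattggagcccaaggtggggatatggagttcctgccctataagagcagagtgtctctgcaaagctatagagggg
Ltf, chr9:111019042-111019291, plus strand: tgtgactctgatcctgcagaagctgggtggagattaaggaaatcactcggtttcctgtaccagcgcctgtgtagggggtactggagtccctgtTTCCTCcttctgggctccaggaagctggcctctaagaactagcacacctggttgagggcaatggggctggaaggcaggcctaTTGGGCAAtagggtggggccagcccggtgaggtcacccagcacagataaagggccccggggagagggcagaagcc
Ly6g, chr15:75155011-75155260, plus strand: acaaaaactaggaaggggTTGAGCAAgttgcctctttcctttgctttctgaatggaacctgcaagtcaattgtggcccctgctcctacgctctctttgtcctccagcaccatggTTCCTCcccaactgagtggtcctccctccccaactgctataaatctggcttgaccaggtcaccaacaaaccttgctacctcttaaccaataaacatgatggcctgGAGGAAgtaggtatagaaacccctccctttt
Cxcr2, chr1:74153744-74153993, plus strand: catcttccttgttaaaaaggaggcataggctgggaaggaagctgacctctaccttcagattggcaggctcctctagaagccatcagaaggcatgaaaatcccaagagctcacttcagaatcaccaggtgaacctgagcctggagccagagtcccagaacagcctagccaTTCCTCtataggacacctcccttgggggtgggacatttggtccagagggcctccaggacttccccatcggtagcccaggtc
The Ctsg window holds GAGGAA with its first base 216 bases before the start. The Fcnb window holds TTNNGCAA at 235 and 123 bases before the start, and that of Ltf at 75 bases, with the PU.1 core on the other strand at 157 bases. The Ly6g window holds TTNNGCAA at 232 bases and the PU.1 core at 136 and 31 bases, and that of Cxcr2 holds the PU.1 core at 81 bases, on the other strand.

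With ligature and overload together, most secondary granule genes fell in bone, and the activation and oxidase genes, the calprotectin pair and part of the mature surface genes rose in gingiva. In bone, 9 of 34 genes fell and 2 rose in LiTra against Co at an edgeR adjusted p under 0.05, where 8.64% of all 21205 tested genes fell and 8.29% rose. The genes that fell were mostly of the secondary granule stage (Cebpe, Fcnb, Chil3, Ltf, Camp and Mmp8), with Ly6g, Padi4 and Cybb, and those that rose were the activation genes Clec4d and Acod1. The median log2 difference was -1.24 for primary granule, -1.59 for secondary granule and -1.23 for mature surface genes in bone. Whether the stages differed in their fall was not tested. In gingiva, where 33 of the 34 passed the filter on low counts and Fcnb did not, 16 rose and 0 fell, where 11.4% of all 20143 tested genes rose and 11.5% fell. These were all 5 activation genes, all 3 oxidase genes, S100a8 and S100a9, 5 of 9 mature surface genes (Itgam, Cxcr2, Fpr1, Fpr2 and Trem1) and 1 of 8 tested secondary granule genes (Lcn2). The median log2 difference was -1.28 over the 34 genes in bone, against -0.01 over all genes, and 1.90 over the 33 in gingiva, against -0.01 over all genes. Elane was at 0 in every LiTra library of gingiva, and the gingiva median was the same with Elane at its bound, taking 3 counts over the LiTra group. In bone the 4 LiTra libraries lay below the 4 Co libraries for 27 of the 34 genes and above them for 4, against 13.9% and 11.9% of all genes. In gingiva they lay above for 20 of the 33 and below for 0, against 14.5% and 14% of all genes.

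The bone count rests on few libraries and on the scaling. Left out 1 at a time, Co 1, Co 2 and Co 4 gave 4, 3 and 3 called genes in place of 11, LiTra 1, LiTra 2 and LiTra 4 gave 4, 3 and 7, and Tra 3 gave 24. With library totals in place of TMM 0 bone genes were called, and no called gene changed direction. DESeq2 called 23 and limma-voom with quality weights 26. The 3 genes Chil3, Ltf and Ly6g kept their call in all 16 fits that left out 1 bone library. In gingiva the count of 16 fell to 9 without Co 1 and to 9 without Co 4, and Itgam, Fpr1, Fpr2, Clec4d, Acod1, Hdc, S100a8, S100a9 and Ncf4 kept their call in all 16 fits.

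**Figure D2:**
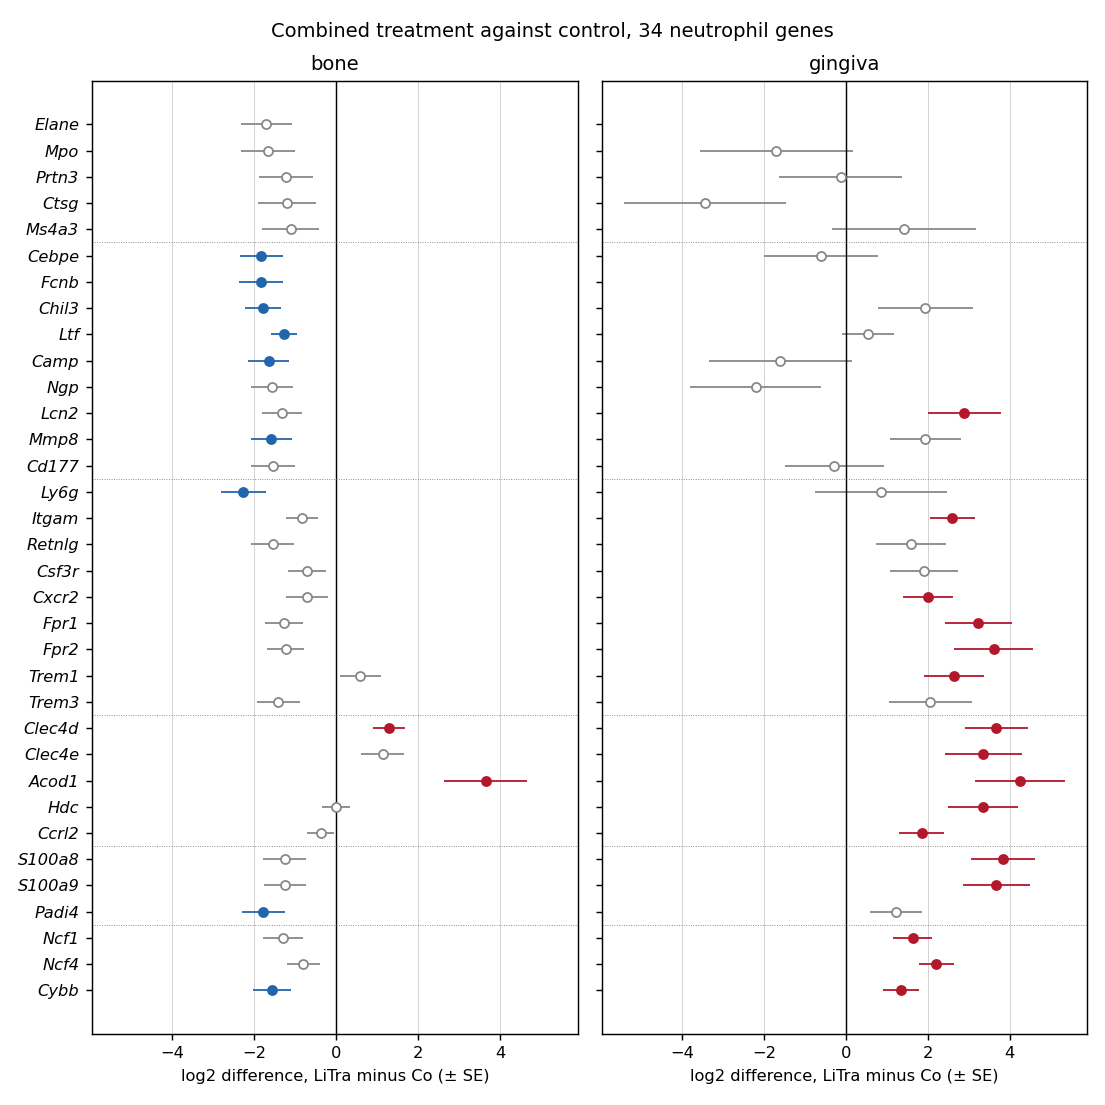
Log2 difference between LiTra and Co for each of the 34 genes in bone (left) and gingiva (right), with a standard error derived from the edgeR test and 4 libraries per group. Filled blue and red points passed an adjusted p under 0.05 as lower and higher in LiTra, and open grey points did not. Dotted lines part the role groups from primary granule genes at the top to oxidase genes at the bottom. Fcnb was not tested in gingiva and Elane was at 0 there in all LiTra libraries, so neither is drawn in the right panel. Most bone points lie left of 0 and most gingiva points below the secondary granule group lie right of it.

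Primary granule genes stood lower in LiTra bone without passing the test, and stayed near 0 in LiTra gingiva. Elane (ENSMUSG00000020125.8) had 53.3, 54.4, 142 and 139.7 CPM in the 4 LiTra bone libraries, against 264, 449, 262 and 300.0 CPM in Co bone. All LiTra libraries lay below all Co libraries, with a log2 difference of -1.71 ± 0.63 (edgeR adjusted p = 0.077). For log2 differences, here and below, the value after ± is a standard error derived from the edgeR test. It is the absolute log2 difference divided by the square root of the F statistic, and is rough where counts are near 0. Mpo (ENSMUSG00000009350.14), which makes hypochlorous acid, had 125, 112, 376 and 289 CPM in LiTra bone, against 580.0, 1009, 492 and 783 in Co bone, a difference of -1.67 ± 0.66 (edgeR adjusted p = 0.1). LiTra 1 and 2 were the low libraries for Elane and Mpo. Prtn3 (ENSMUSG00000057729.13), proteinase 3, had 55.1, 43.5, 133 and 136 CPM in LiTra bone, against 180.0, 315, 169.5 and 201 in Co bone, a difference of -1.24 ± 0.66. Ctsg, cathepsin G, and Ms4a3, a membrane protein of granulocyte precursors, had differences of -1.21 ± 0.71 and -1.11 ± 0.70. None of the 5 was called by edgeR in bone (2 had an unadjusted p under 0.05). In gingiva Elane was at 0 counts in all 4 LiTra libraries, against 0, 0, 24 and 4 counts in Co, most of them from Co 3, and did not pass (edgeR adjusted p = 0.34). Mpo had 0, 0.276, 0.071 and 0.183 CPM in LiTra gingiva, against 0, 0.192, 1.39 and 0.185 in Co gingiva. Prtn3 had 0.709, 0.299, 0.189 and 0.0917 CPM in LiTra gingiva, against 0, 0.791, 0.599 and 0 in Co gingiva. Most of these values rest on a handful of reads, and none of the 5 genes was called in LiTra gingiva at this depth (0 had an unadjusted p under 0.05).

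Of the 9 secondary granule genes 6 fell in LiTra bone. Chil3 (ENSMUSG00000040809.11), a chitinase-like lectin, had 161, 248, 464 and 408 CPM in LiTra bone, against 990.2, 1324, 1033 and 1050.3 in Co bone. The groups did not overlap, and the log2 difference was -1.78 ± 0.44 (edgeR adjusted p = 0.013). Ltf (ENSMUSG00000032496.8), the iron-binding lactoferrin, had 1062, 576, 1058 and 913 CPM in LiTra bone, against 2018, 2283, 2518 and 1961 in Co bone, a difference of -1.28 ± 0.32 (edgeR adjusted p = 0.013). Lactoferrin is also a product of glands. LiTra 1, where nasal gland transcripts took 49.9% of the counts, was the highest LiTra library for Ltf and the lowest for the other 8 genes of the group, and the part of gland RNA in the Ltf values was not tested. Cebpe (ENSMUSG00000052435.8), the transcription factor that secondary granule formation needs, had 7.97, 9.66, 20.8 and 17.9 CPM in LiTra bone, against 45.9, 57.4, 44.4 and 52.5 in Co bone, a difference of -1.83 ± 0.53 (edgeR adjusted p = 0.028). Fcnb, Camp and Mmp8, the neutrophil collagenase, also fell, by 1.84, 1.65 and 1.59 on the log2 scale. Ngp (-1.57), Lcn2 (-1.32) and Cd177, a neutrophil surface glycoprotein (-1.55), did not pass, with edgeR adjusted p from 0.053 to 0.081. In all 9 genes every LiTra bone library lay below every Co library.

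In LiTra gingiva 1 of the 8 tested secondary granule genes passed the test. Lcn2 (ENSMUSG00000026822.15), which binds bacterial siderophores, rose, with 339, 108, 62.7 and 297 CPM in LiTra gingiva, against 5.32, 48.3, 21.8 and 33.9 in Co gingiva, and a difference of 2.88 ± 0.89 (edgeR adjusted p = 0.03). The other 7 tested genes did not pass, and their log2 differences ran from -2.21 for Ngp to 1.93 for Chil3 and Mmp8. Chil3 had 17.2, 4.16, 15 and 10.2 CPM in LiTra gingiva, against 0.34, 2.66, 7.91 and 1.27 in Co gingiva, groups that overlapped. Mmp8 had 5.73 to 13.2 CPM in LiTra gingiva, against 0.437 to 3.88 in Co gingiva, groups that did not overlap. Ltf had 105, 46.8, 195 and 59.7 CPM in LiTra gingiva, against 27.2, 76.2, 115 and 62.9 in Co gingiva, a difference of 0.53 ± 0.63. Cebpe was below 1 CPM in every LiTra and Co gingiva library. Camp had 0 to 1.24 CPM in LiTra gingiva and 0.192 to 3.74 in Co gingiva, and Ngp 0.26 to 2.32 and 0.534 to 19.3.

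Among mature surface genes Ly6g alone passed the test in LiTra bone, while 5 of the 9 rose in LiTra gingiva. Ly6g (ENSMUSG00000022582.5), the antigen by which mouse neutrophils are sorted, had 3.95, 6.75, 18.7 and 12 CPM in LiTra bone, against 51.5, 52.7, 50.4 and 45.2 in Co bone. This was the largest decrease of the 34 genes, with a log2 difference of -2.27 ± 0.55 (edgeR adjusted p = 0.011). In gingiva Ly6g was scarce, with 1.09, 0.391, 0.166 and 0.321 CPM in LiTra and 0, 0.311, 0.767 and 0 in Co, and the difference of 0.85 ± 1.61 did not pass. Itgam (ENSMUSG00000030786.19), the CD11b integrin that macrophages share, had 83.8, 50.4, 74.7 and 69.4 CPM in LiTra gingiva, against 6.73, 17.8, 16.8 and 4.6 in Co gingiva, a rise of 2.60 ± 0.55 (edgeR adjusted p = 0.0043). In bone Itgam had 102, 133, 189 and 182 CPM in LiTra, against 268, 323, 241 and 247 in Co, groups that did not overlap, with a difference of -0.83 ± 0.39 that did not pass (edgeR adjusted p = 0.17). Cxcr2 (ENSMUSG00000026180.9) had 72.7, 27.3, 27.4 and 48.5 CPM in LiTra gingiva, against 5.97, 18.9, 12.6 and 6.67 in Co gingiva. Each LiTra library exceeded each Co library, a rise of 2.00 ± 0.61 (edgeR adjusted p = 0.029).

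In bone Cxcr2 had 40.3, 45.2, 49.5 and 70.9 CPM in LiTra and 91.8, 91.1, 83 and 71.1 in Co. LiTra 4 came within 1 CPM of Co 4, and the difference of -0.71 ± 0.52 did not pass (edgeR adjusted p = 0.41). Fpr1 (ENSMUSG00000045551.8), which senses bacterial formyl peptides, had 12.4, 6.19, 5.21 and 8.18 CPM in LiTra gingiva, against 0.243, 1.41, 1.13 and 0.608 in Co gingiva, a rise of 3.23 ± 0.82 (edgeR adjusted p = 0.012). In bone Fpr1 had 8.14, 10.7, 10.8 and 12.6 CPM in LiTra, against 25.7, 26.3, 26.1 and 24.5 in Co, with no overlap and a difference of -1.28 ± 0.47 (edgeR adjusted p = 0.077). Fpr2, its relative, and Trem1, an amplifying receptor of myeloid cells, rose in LiTra gingiva by 3.61 ± 0.97 and 2.64 ± 0.73. Trem1 was also the mature surface gene that stood higher in LiTra bone, with 20.3 to 27 CPM in LiTra and 13.7 to 18.1 CPM in Co, a difference of 0.58 ± 0.50 that did not pass. Csf3r, the G-CSF receptor (-0.72 in bone, 1.90 in gingiva), Retnlg (-1.55 and 1.58), and Trem3 (-1.42 and 2.05) passed in neither tissue.

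Activation genes were the group with called rises in LiTra of both tissues, 2 of 5 in bone and 5 of 5 in gingiva. In bone the 5 genes did not move alike, and Hdc and Ccrl2 did not rise. The mean log2(CPM + 1) of the group was 3.53 to 4.65 in LiTra libraries, above the 3.24 to 3.49 of Co libraries. The summed CPM of the group overlapped, at 76.7 to 149 in LiTra and 72.1 to 92.3 in Co. With 1 bone library left out, Clec4d lost its bone call in 7 of 16 fits and Acod1 in 5 of 16. Clec4d (ENSMUSG00000030144.5), a C-type lectin that binds mycobacterial and fungal glycolipids, had 31, 34.8, 15.1 and 28.3 CPM in LiTra bone, against 14.2, 10.4, 9.48 and 10.9 in Co bone, a difference of 1.28 ± 0.39 (edgeR adjusted p = 0.037). LiTra 3 lay within 1 CPM of Co 1, and the other LiTra libraries lay well above. In gingiva Clec4d had 61.3, 35, 37.2 and 54.7 CPM in LiTra, against 2.43, 7.76, 2.56 and 2.01 in Co, a rise of 3.67 ± 0.76 (edgeR adjusted p = 0.0041). Acod1 (ENSMUSG00000022126.7) had 9.56, 22.4, 3.32 and 6.61 CPM in LiTra bone, against 1.05, 0.983, 0.407 and 0.868 in Co bone. All LiTra libraries exceeded all Co libraries, with LiTra 2 the highest, and the difference was 3.65 ± 1.01 (edgeR adjusted p = 0.024). In gingiva Acod1 had 34.5, 18.7, 18.1 and 35.3 CPM in LiTra, against 0.534, 1.8, 1.73 and 1.53 in Co, a rise of 4.25 ± 1.10 (edgeR adjusted p = 0.013). Hdc (ENSMUSG00000027360.6), which makes histamine, parted the tissues. It had 115, 46.1, 28 and 84.1 CPM in LiTra gingiva, against 4.74, 11.1, 6.54 and 4.68 in Co gingiva, a rise of 3.33 ± 0.86 (edgeR adjusted p = 0.013). In bone Hdc had 64.8, 52.4, 34.7 and 63.3 CPM in LiTra and 57.7, 59.5, 53.2 and 44.7 in Co, groups that overlapped, and its near-0 difference changed sign with the scaling.

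Clec4e, the Mincle receptor, rose in LiTra gingiva by 3.35 ± 0.94 and stood at 20.8 to 37 CPM in LiTra bone, against 9.41 to 16 in Co bone, a difference of 1.13 ± 0.53 that did not pass (edgeR adjusted p = 0.17). Ccrl2, an atypical chemokine receptor, rose in LiTra gingiva by 1.85 ± 0.56 and had a difference of -0.38 ± 0.33 in bone. Mast cells and basophils also make histamine. The 7 genes of a mast cell and basophil list summed to 29.5 to 51.6 CPM in LiTra gingiva, against 26.6 to 46.1 CPM in Co gingiva, and 0 of the 6 tested was called by edgeR (0 with an unadjusted p under 0.05). Macrophages share Clec4d, Clec4e, Acod1 and Trem1. The 9 genes of a macrophage list summed to 378 to 552 CPM in LiTra gingiva, against 144 to 188 CPM in Co gingiva, and 7 of the 9 rose. In bone they summed to 729 to 1102 CPM in LiTra, against 564 to 800.4 CPM in Co, with Cd68 and Csf1r called higher and Cx3cr1 lower. The part of macrophages in the rise of the shared genes was not tested.

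The calprotectin pair rose in LiTra gingiva and did not pass in LiTra bone. S100a8 (ENSMUSG00000056054.10) had 3279.9, 1483, 896 and 3582 CPM in LiTra gingiva, against 46.5, 314, 146 and 146 in Co gingiva, a rise of 3.82 ± 0.79 (edgeR adjusted p = 0.0038). S100a9 (ENSMUSG00000056071.13) had 4563, 1559, 1026 and 5122 CPM in LiTra gingiva, against 73.2, 422, 225 and 247 in Co gingiva, a rise of 3.67 ± 0.81 (edgeR adjusted p = 0.0057). LiTra 1 and LiTra 4 were the highest for both genes, and no LiTra library overlapped Co. In bone S100a8 had 411, 916, 1554 and 1259 CPM in LiTra, against 2607, 2938, 2244 and 2150.0 in Co, with no overlap and a difference of -1.26 ± 0.52 that did not pass (edgeR adjusted p = 0.11). S100a9 had 619, 1362, 2098 and 1925 CPM in LiTra bone, against 3888, 4059, 3205 and 3176 in Co bone, a difference of -1.25 ± 0.52 (edgeR adjusted p = 0.12). For both genes the CPM ranges of LiTra gingiva and LiTra bone overlapped. Keratinocytes can make both. The 8 keratinocyte genes summed to 54657 to 67500.3 CPM in LiTra gingiva, against 85569.9 to 106184 CPM in Co gingiva. Of them 5 were called lower and 1 higher, and the part of keratinocytes in the calprotectin rise was not tested. Padi4 (ENSMUSG00000025330.7), the deiminase that neutrophils use to loosen chromatin, had 9.15, 19.7, 31.4 and 31.1 CPM in LiTra bone, against 82.2, 82.6, 70.3 and 79 in Co bone, a fall of -1.78 ± 0.53 (edgeR adjusted p = 0.032). In gingiva Padi4 had 5.9, 3.04, 5.94 and 6.19 CPM in LiTra and 0.607, 3.21, 4.0 and 1.22 in Co, groups that overlapped, a difference of 1.22 ± 0.63 that did not pass.

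Oxidase subunits, which make the superoxide of the respiratory burst in neutrophils and macrophages alike, all rose in LiTra gingiva. Ncf4 (ENSMUSG00000071715.13), the p40 subunit, had 18.7, 12.6, 15.3 and 15.6 CPM in LiTra gingiva, against 2.21, 3.74, 3.48 and 4.05 in Co gingiva, a rise of 2.21 ± 0.42 (edgeR adjusted p = 0.0024). Ncf1 (ENSMUSG00000015950.14), the p47 subunit, had 34.9, 22.4, 51.4 and 37.8 CPM in LiTra gingiva, against 8.38, 15.1, 13.9 and 10.1 in Co gingiva, a rise of 1.63 ± 0.48 (edgeR adjusted p = 0.024). Cybb (ENSMUSG00000015340.11), the membrane subunit gp91, had 26, 26, 54 and 34.8 CPM in LiTra gingiva, against 10.5, 15.2, 18.3 and 11.6 in Co gingiva, a rise of 1.34 ± 0.44 (edgeR adjusted p = 0.04). LiTra 3, the lowest for calprotectin, was the highest for Ncf1 and Cybb. In bone Cybb had 55.7, 97.6, 187 and 141 CPM in LiTra, against 345, 441, 319.9 and 330.4 in Co, a fall of -1.58 ± 0.46 (edgeR adjusted p = 0.031). Ncf1 had 69.6, 115, 203 and 193 CPM in LiTra bone, against 344, 417, 316 and 357 in Co bone, a difference of -1.31 ± 0.49, and Ncf4 a difference of -0.80 ± 0.41. Neither passed, though their groups did not overlap.

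**Figure D3:**
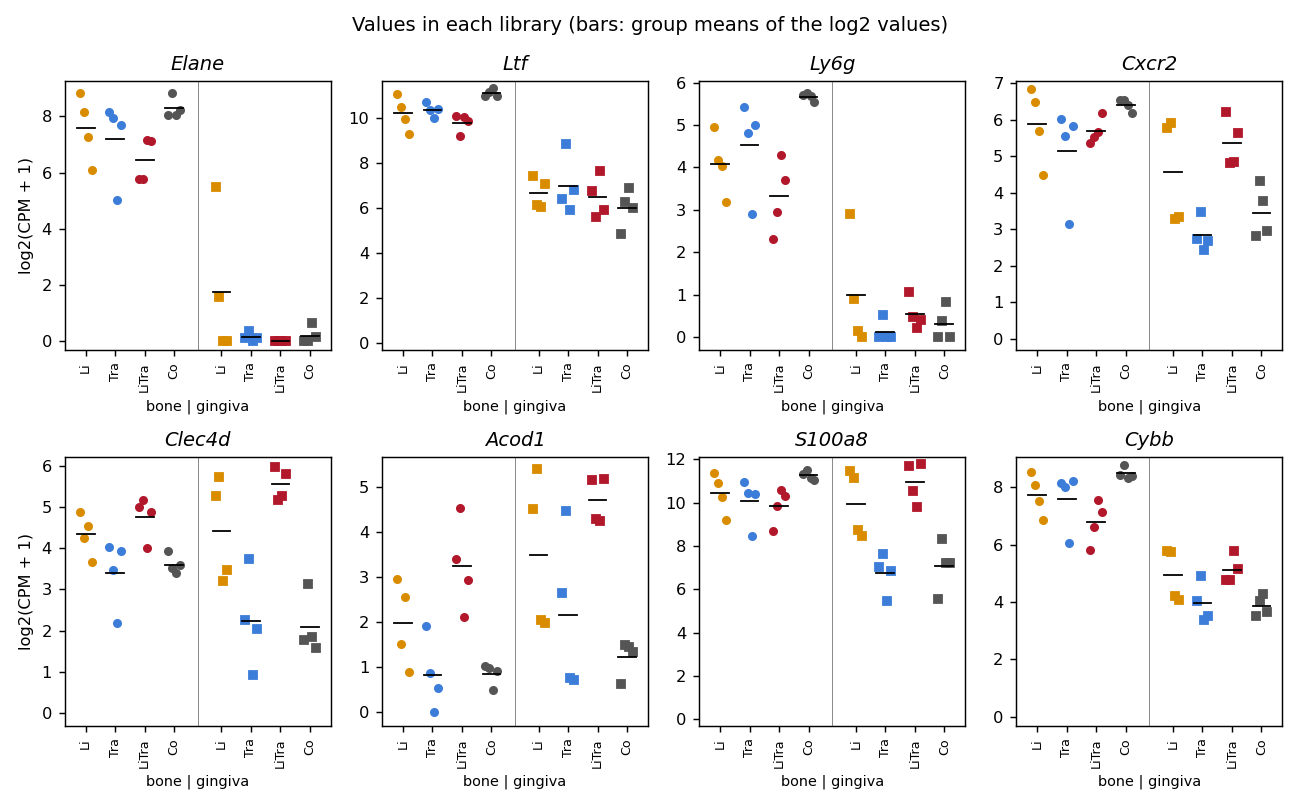
Log2(CPM + 1) of 8 genes in every library, with bone (circles) at the left and gingiva (squares) at the right of each panel and the groups in the order Li, Tra, LiTra and Co. Bars are group means. Elane is near 0 in gingiva except in Li 1 and Li 2, Ly6g in LiTra bone lies below all Co bone libraries, and Clec4d, Acod1 and S100a8 in LiTra gingiva lie above all Co gingiva libraries.

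With the ligature alone, a few of the genes rose in gingiva and none passed in bone. Li, Tra and LiTra were set against the same Co libraries, so that these comparisons are not independent of each other. In Li gingiva 5 of 33 genes rose and 0 fell (Itgam, Clec4d, S100a8, S100a9 and Ncf4), where 5.19% of all tested genes rose. All 33 log2 differences were above 0, with a median of 2.54, against 0.0045 over all genes. S100a8 had 2861, 2268, 424 and 357 CPM in Li gingiva, a rise of 3.18 ± 0.76 over Co (edgeR adjusted p = 0.023). Li 1 and Li 2 were high and Li 3 and Li 4 low for this gene, and Li 1 and Li 2 both exceeded Li 3 and Li 4 for all genes except Ltf. Itgam had 70.6, 126, 26.1 and 29.7 CPM in Li gingiva, a rise of 2.46 ± 0.54 over Co (edgeR adjusted p = 0.016). Ncf4 had 20.3, 21.5, 6.86 and 5.15 CPM in Li gingiva, a rise of 2.00 ± 0.41. The count of 5 was sensitive to single libraries. It fell to 1 if Co 1 or Li 2 was left out and to 2 if Co 3, Co 4 or Li 1 was, and it reached 17 with Li 3 dropped, 16 with Li 4 dropped and 9 with Tra 2 dropped. DESeq2 called 17 and limma-voom 1. In Li bone 0 of 34 genes passed, where 3.51% of all tested genes did. In that comparison 5 had an unadjusted p under 0.05, DESeq2 called 1 and limma-voom 2. The median log2 difference was -0.53, against -0.02 over all genes, with Ly6g at the low end (-1.51) and Acod1 at the high end. Ly6g had 29.9, 17, 15.4 and 8.03 CPM in Li bone, below all Co libraries, and Acod1 had 6.77, 1.86, 4.87 and 0.85 CPM.

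Primary granule transcripts appeared in gingiva in 1 Li library above all. Elane had 44.2, 1.95, 0 and 0 CPM in Li gingiva, against 0, 0, 0.575 and 0.106 CPM in Co gingiva. Mpo had 47.7, 4.39, 0.195 and 0 CPM in Li gingiva, against 0, 0.192, 1.39 and 0.185 CPM in Co gingiva. Summed over the 5 primary granule genes, Li 1 reached 150.4 CPM and Li 2 reached 12.2 CPM, where the other gingiva libraries held 0.0889 to 3.74 CPM. Li 1 was also the highest Li library for Camp (96.1, 3.86, 0.195 and 0.156 CPM), Ngp (216, 19, 1.22 and 0.333 CPM) and Fcnb (14.2, 0.594, 0 and 0 CPM). Haemoglobin transcripts took 0.246% of its counts and 5 B cell genes summed to 24.1 CPM, against at most 3.10 CPM in Co gingiva. The part of blood or marrow RNA in Li 1 was not tested. The log2 differences between Li and Co, 4.27 to 6.05 for the 5 genes, did not pass (edgeR adjusted p from 0.095 to 0.11).

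Overload alone gave no call. In Tra bone 0 of 34 genes passed by edgeR, DESeq2 or limma-voom, where 0% of all genes did, and 3 had an unadjusted p under 0.05. The 4 Tra libraries lay below the 4 Co libraries for 19 of the 34 genes, against 3.53% of all genes, and above them for 0, against 2.52%. The median log2 difference was -0.77, against 0.02 over all genes. Padi4 had 45.5, 44.1, 8.08 and 45.1 CPM in Tra bone and 82.2, 82.6, 70.3 and 79 in Co bone, a difference of -1.14 ± 0.52 (edgeR adjusted p = 0.52). Cxcr2 had 63.7, 45.7, 7.85 and 55.5 CPM in Tra bone and 91.8, 91.1, 83 and 71.1 in Co bone, a difference of -0.96 ± 0.52. Tra 3 was the lowest library by far for both, and the other 3 still lay below all Co libraries. Acod1 in Tra bone, at 2.74, 0.825, 0 and 0.457 CPM, spread around its Co level. In Tra gingiva 0 of 33 passed by edgeR, DESeq2 or limma-voom, where 0% of all genes did, and 1 had an unadjusted p under 0.05. That gene was Acod1, with 5.29, 21.2, 0.695 and 0.636 CPM in Tra gingiva, high in Tra 1 and Tra 2 alone.

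Adding overload to the ligature gave no call by edgeR, and adding the ligature to overload gave many in gingiva. In LiTra against Li, 0 of 34 genes passed in bone, where 0% of all genes did, with 3 at an unadjusted p under 0.05 and 0 by DESeq2 or limma-voom. The 3 were Cebpe (-1.16 ± 0.52), Fcnb (-1.25 ± 0.53) and Chil3 (-1.19 ± 0.43). The median log2 difference was -0.76, against 0.00027 over all genes, and 29 of the 34 were below 0. In gingiva 0 of 33 passed, where 0.0844% of all genes did, with 9 at an unadjusted p under 0.05, 5 called by DESeq2 and 0 by limma-voom. Those 9 were primary and secondary granule genes, lower in LiTra, for each of which Li 1 was the highest Li library. In LiTra against Tra, 17 of 33 gingiva genes rose, where 9.36% of all genes did. They were 8 of 9 mature surface genes (Ly6g did not pass), Clec4d, Clec4e and Hdc, S100a8, S100a9 and Padi4, Ncf1 and Ncf4, and Mmp8. S100a8 rose by 4.27 ± 0.80 and Cxcr2 by 2.78 ± 0.63 (edgeR adjusted p = 0.0033 and 0.0082). The count was 9 without Tra 1, 9 without Tra 3, 9 without Tra 4, 9 without LiTra 1 and 9 without LiTra 4. In bone 0 of 34 passed in that comparison, where 5.56% of all genes did, with 6 at an unadjusted p under 0.05, 4 by DESeq2 and 5 by limma-voom. The edgeR count was 1 without Tra 1, 3 without Tra 3 and 1 without LiTra 1. The nearest were Clec4d at 1.33 and Acod1 at 3.36 (edgeR adjusted p = 0.063 and 0.067). LiTra against Co and LiTra against Tra share their LiTra libraries. The interaction, which sets the effect of the ligature in overloaded mice against its effect in the others, passed for 0 of 34 genes in bone and 0 of 33 in gingiva, where 0% of all genes passed in each. In bone 0 had an unadjusted p under 0.05 and 0 were called by DESeq2 or limma-voom, and in gingiva 3 had one, with 1 called by DESeq2 and 0 by limma-voom.

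The difference between the tissues was itself tested. The LiTra effect in bone minus that in gingiva was below 0 for 15 of 34 genes and above 0 for 0 at an edgeR adjusted p under 0.05, where 6.68% of all 22559 genes were below. All 3 oxidase genes and all 3 of the S100 and Padi4 group were among them, with 5 of 9 mature surface genes, 2 of 9 secondary granule genes, 2 of 5 activation genes and 0 of 5 primary granule genes. The difference of the log2 effects was -5.08 ± 0.97 for S100a8, -4.82 ± 1.07 for Fpr2 and -4.20 ± 1.06 for Lcn2. For Cxcr2 it was -2.69 ± 0.85 and for Hdc -3.32 ± 0.94. Clec4d (-2.38 ± 0.86) and Acod1 (-0.61 ± 1.38), which rose in both tissues, did not pass. With library totals in place of TMM the count was 0, and no gene called with TMM changed sign. For the ligature alone the difference passed for 3 of 34 genes, Itgam (-2.79 ± 0.70), S100a8 (-3.80 ± 0.95) and Ncf4 (-2.26 ± 0.61), where 0.683% of all genes were below 0. That count was 0 without bone Co 2, Co 4, Li 2, Li 3 or Li 4 or gingiva Co 1, Co 4, Li 1 or Li 2, 1 without gingiva Co 3, 8 without bone Tra 3, and 10 without gingiva Li 3 or Li 4.

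Within a library the stages can be set against each other by a difference of levels, the mean log2(CPM + 1) over the genes of each stage. In gingiva the mature surface level exceeded the primary granule level by 4.45, 3.46, 3.50 and 4.05 in LiTra libraries, 0.04, 2.80, 2.22 and 2.18 in Li libraries and 1.55, 2.31, 0.99 and 1.55 in Tra libraries, against 1.48, 2.66, 1.72 and 1.62 in Co libraries. The LiTra libraries lay above all others, and Li 1, the library with primary granule transcripts, was the low one. The primary granule level was near the floor, at 0.1 to 0.21 in LiTra gingiva and 0.03 to 0.77 in Co gingiva. There the difference mostly follows the mature surface level itself, 3.6 to 4.65 in LiTra and 1.5 to 2.87 in Co. It therefore cannot show a change in the balance of these stages, and its size depends on the pseudocount. With 0.1 in place of 1 its mean was 6.17 in LiTra (3.86 with 1) and 3.46 in Co (1.87 with 1), and each LiTra library still lay above all others. In bone the same difference was -0.73, -0.33, -1.53 and -1.28 in LiTra, against -1.03, -1.88, -1.23 and -1.48 in Co, and the groups overlapped. The mature surface level minus the secondary granule level was -1.81, -2.04, -2.57 and -2.35 in LiTra bone, -2.97 to -2.63 in Li bone and -3.04 to -2.79 in Tra bone, against -2.74, -2.95, -2.80 and -2.84 in Co bone. Each LiTra library lay above every Li, Tra and Co bone library for this difference. The activation level minus the secondary granule level was -1.87, -2.35, -4.42 and -3.71 in LiTra bone, -4.97 to -4.09 in Li bone and -5.16 to -3.88 in Tra bone, against -5.51, -5.85, -5.53 and -5.68 in Co bone. All treated bone libraries lay above all Co libraries for it, in each group. In gingiva it was 2.42, 2.06, 2.04 and 2.60 in LiTra, against 0.44, 0.49, -0.84 and -0.28 in Co. There it mostly follows the activation level itself, 4.43 to 5.29 in LiTra and 1.48 to 2.56 in Co. The secondary granule level was 2.38 to 2.87 in LiTra gingiva and 1.04 to 2.84 in Co gingiva, with several of its genes near the floor. This difference therefore cannot show a change in the balance of these stages either. With a pseudocount of 0.1 its mean was 3.31 in LiTra (2.28 with 1) and 0.59 in Co, where it was -0.05 with 1, so that the sign in Co turned. As shares of the summed CPM of the 34 genes, secondary granule genes made up 39.7 to 49.1% in LiTra bone, against 46.1 to 48.8% in Co bone. The 49.1% was that of LiTra 1, the library rich in nasal gland transcripts, and the part of gland RNA in it was not tested. The other LiTra bone libraries held 39.7 to 43.05%, below all Co bone libraries. In gingiva S100a8, S100a9 and Padi4 made up 72.2 to 89.4% of the summed CPM in LiTra, against 55.5 to 69.4% in Co.

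**Figure D4:**
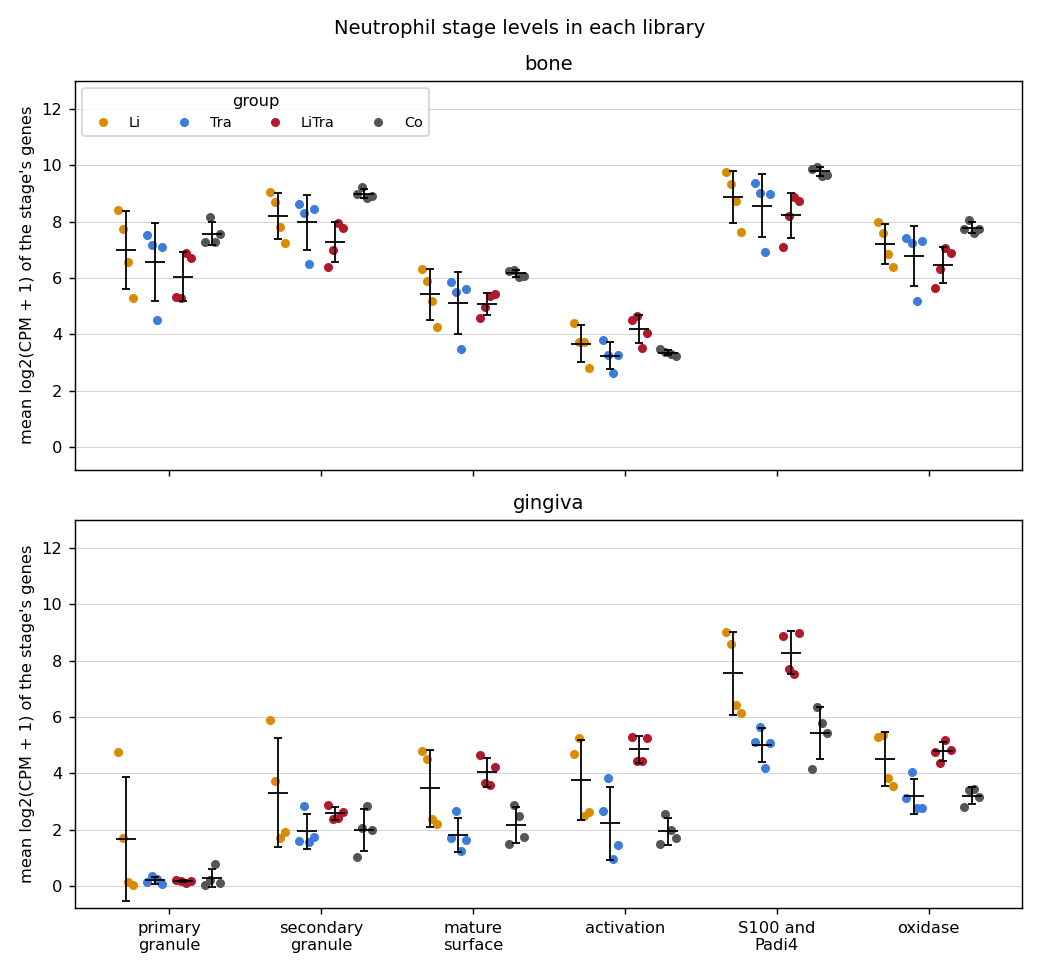
Mean log2(CPM + 1) over the genes of each role group in every library of bone (top) and gingiva (bottom), with groups in the order Li, Tra, LiTra and Co. Dots are libraries, and black bars are the mean and SD of 4 libraries. In bone the 4 LiTra libraries lie below the 4 Co libraries for every group except activation, where they lie above, and in gingiva the LiTra libraries are above Co for the mature surface, activation, S100 and oxidase groups but not for the primary granule group.

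A further 30 neutrophil genes outside the 34 moved in part alike. In LiTra bone 7 of the 30 fell and 0 rose, against 8.64% and 8.29% of all tested genes. Among those that fell were Lbr, which shapes the lobed nucleus, at -1.26 ± 0.27, Cebpa, a regulator of the granulocyte lineage, at -0.60 ± 0.15, Mmp25, a membrane protease, at -1.79 ± 0.51 and Lyz2, lysozyme, at -1.05 ± 0.30. Gfi1, which granulocyte precursors need, fell too, with 3.41, 4.18, 9.34 and 8.36 CPM in LiTra bone, against 17, 28.5, 19.5 and 19.2 in Co bone. The median log2 difference over the 30 was -0.75, against -0.01 over all genes. In LiTra gingiva 16 of the 30 rose and 4 fell, against 11.4% and 11.5% of all tested genes, with a median of 1.74, against -0.01 over all genes. The share that fell was near that of all genes. The smallest p-values were those of Lyz2 (2.21 ± 0.42), Alox5ap of leukotriene synthesis (1.89 ± 0.37), Cebpd (2.11 ± 0.41) and Adam8 (1.84 ± 0.37). Those that fell were Cebpa (-0.61), Stfa3 (-0.75), Olfm4 (-5.92) and Dgat2 (-0.81). Lyz2 and Alox5ap are macrophage genes as well. In LiTra bone other marrow lineages were lower too. The 5 B cell genes summed to 25.1 to 52.9 CPM in LiTra bone, against 211 to 323 CPM in Co bone, and all 5 fell. The 8 erythroid genes summed to 807 to 2893 CPM in LiTra bone, against 11196 to 22012 CPM in Co bone, and all 8 fell. The part of the amount of marrow in each bone sample was not tested.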

How the data were processed

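The 34 genes and all other lists were chosen with earlier results of these data known. The authors deposited 1 table of estimated counts per gene for each tissue, and the submitters' processing notes name Trimmomatic 0.39, FastQC 0.11.9, HISAT2 2.2.1, StringTie 2.1.7, DESeq2 1.32.0 and the GRCm39 build. The deposited estimated counts are whole numbers and were used unrounded. Whether reads were assigned by strand is not given in the sources used here. Columns of overloaded mice carry CR in place of Tra, read as composite resin. Exon lengths came from GENCODE M21 and promoters from RefSeq, both on GRCm38, matched by gene name or identifier.

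Genes were kept by filterByExpr (at least 10 counts, 15 in total) and tested with edgeR 4.0.16 (quasi-likelihood, TMM, R 4.3.3), with Benjamini-Hochberg adjustment over all tested genes and a threshold of 0.05, two-sided. Each tissue had 1 fit over 16 libraries, and tissues were compared in 1 fit over all 32. Stage levels used a pseudocount of 1. Alternatives were other scalings (DESeq2 size factors, library totals), no filter and a stricter one, DESeq2 1.42.0, limma-voom (3.58.1), a replicate block and leaving out libraries. No pair of libraries in a group differed by less than sampling noise. The scripts were tested on simulated data. All 34 genes are described; library values are given for up to 3 genes per stage with the smallest p in LiTra against Co of either tissue, plus Elane, Ltf, Cxcr2, S100a8 and Cybb, and for a few others chosen after their values were seen. Of other lists up to 4 genes with the smallest p are named, and Gfi1 was chosen after its values were seen.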

Additional observations from a re-analysis of the deposited data

Results flagged for a closer look

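Of 324 sets of 4 libraries checked for a library far from the others (56 of stage levels, 268 of single genes), 29 or 8.95% held one by Dixon's criterion. Chance gives about 1 in 20 for independent sets. These sets are not independent, since they share libraries and the stage levels are means of the same genes. Most of the flags came from bone Tra 3. Values here are log2(CPM + 1), or its mean over a stage. Bone Tra 3 was far below the other Tra libraries for the primary granule level (4.5), the secondary granule level (6.51), the mature surface level (3.48), the S100 and Padi4 level (6.91) and the oxidase level (5.17). The single genes were Cd177 (5.51), Cebpe (2.88), Csf3r (4.28), Cxcr2 (3.15), Cybb (6.04), Elane (5.04), Fpr1 (1.8), Itgam (5.64), Lcn2 (7.24), Mpo (6.28), Ms4a3 (2.57), Ncf1 (5.64), Ncf4 (3.83), Ngp (8.69) and Padi4 (3.18). Bone Tra 1 was far above its group for Hdc (5.92). Gingiva Tra 2 was far above its group for the secondary granule level (2.85), Ly6g (0.52) and Ncf4 (2.6). The remaining ones were Acod1 low in gingiva Co 1 (0.62), Clec4d high in gingiva Co 2 (3.13), Ms4a3 high in gingiva Co 3 (0.36), Ctsg high in gingiva LiTra 3 (0.13) and Padi4 low in gingiva LiTra 2 (2.01).

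The effect in bone minus that in gingiva passed the edgeR test of the difference itself for 18 results. For Li against Co the log2 values were -2.79 for Itgam, -3.80 for S100a8 and -2.26 for Ncf4. For LiTra against Co they were -4.20 for Lcn2, -3.50 for Mmp8, -3.42 for Itgam, -2.69 for Cxcr2, -4.49 for Fpr1, -4.82 for Fpr2 and -3.45 for Trem3. They were -3.32 for Hdc, -2.21 for Ccrl2, -5.08 for S100a8, -4.91 for S100a9, -2.98 for Padi4, -2.92 for Ncf1, -3.00 for Ncf4 and -2.90 for Cybb.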

How the results depend on the processing

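The counts of called genes moved by over 1.5 times as follows. DESeq2 called 1 in bone Li against Co (main 0), 23 in bone LiTra against Co (11), 4 in bone LiTra against Tra (0), 17 in gingiva Li against Co (5), 5 in gingiva LiTra against Li (0), 1 for the gingiva interaction (0) and 15 for the tissue difference of Li (3). Limma-voom called 2, 26, 5 and 1 in the first 4 of these. Library totals gave 0 in bone LiTra against Co and 0 for both tissue differences (3 for Li, 15 for LiTra). Without the filter gingiva Li against Co gave 3 and the tissue difference of Li 0, and with a CPM over 1 in at least 4 libraries 8 and 7. Without bone Co 3, Tra 3 and LiTra 1 together bone Li against Co gave 1 and the tissue difference of Li 9. Leaving out 1 library gave 3 to 24 in bone LiTra against Co, 0 to 3 in bone LiTra against Tra, 1 to 17 in gingiva Li against Co, 9 to 16 in gingiva LiTra against Co, 9 to 19 in gingiva LiTra against Tra and 0 to 10 for the tissue difference of Li. The causes were not tested.

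The replicate numbers gave no clear pairing of the libraries, but such correlations cannot exclude one, and the main fits used no pairing. Same-number correlations ran from -0.464 to 0.69 in bone and from -0.302 to 0.272 in gingiva. Of the libraries, 3 of 16 in bone and 1 of 16 in gingiva correlated best with their own number. Between the bone and the gingiva library of 1 group and number, correlations ran from -0.198 to 0.35 over 16 pairs. The replicate block gave 5 calls in bone LiTra against Co and 1 in bone LiTra against Tra. For the tissue difference of Li, a block for the bone and gingiva library of 1 group and number gave 7.

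With a pseudocount of 0.1 in place of 1, activation minus secondary granule levels were -5.93 in bone Co (main -5.64), 3.31 in gingiva LiTra (2.28) and 0.59 in gingiva Co, reversed from -0.05. Mature surface minus primary granule levels were 6.17 in gingiva LiTra (3.86), 2.98 in gingiva Tra (1.60) and 3.46 in gingiva Co (1.87). Hdc in bone LiTra against Co, near 0, reversed to 0.0072 with DESeq2 size factors and 0.0073 with DESeq2, and ran from -0.1019 to 0.1606 with 1 library left out. Library totals moved the median of all genes by 0.149 in bone Li against Co, -0.101 in bone LiTra against Li, 0.106 in bone LiTra against Tra and 0.146 in gingiva LiTra against Tra.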
